A study of Mus musculus with 6 samples.

Results

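The chemokine ligand genes of the mouse left ventricle were described in 6 mRNA-seq libraries, as the reads of each gene in each library. The genes were taken from the deposited count table as rows of protein-coding type whose symbol is Ccl, Cxcl, Cx3cl or Xcl followed by a number, without the interferon-induced ligand genes Cxcl9 and Cxcl10. Of the 54929 rows of the table, 47 had such a symbol and 44 of these were protein coding, which left 42 genes under 36 symbols. They were 30 CC, 10 CXC, 1 CX3C and 1 C ligand rows, and 7 of the 42 lay on unplaced scaffolds, which hold further copies of Ccl19, Ccl21 and Ccl27a.

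All 6 libraries came from left ventricles of wild-type C57BL/6 mice that had undergone TAC (transverse aortic constriction), in which surgery narrows the aorta and so loads the left ventricle with pressure. In 1 group of 3 libraries, called anti-PD-1, the mice had been given an antibody to PD-1, a receptor that restrains activated T cells. In the other group of 3, called anti-IgG, they had been given a control antibody against IgG. Both antibodies were injected into the peritoneum at 10 mg/kg every 3 days from day 14 after surgery, and every library carries a time label of 5 weeks. No label ties a library to an animal of its own, and the p-values therefore measure the spread between these libraries, which may be technical. Neither a ventricle without TAC nor one without antibody was analysed here.

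Chemokines are small secreted proteins that bind receptors of the G-protein-coupled class on leukocytes and direct their movement, and heparan sulfate chains on cell surfaces and in matrix hold them in place. Some are made steadily by stromal and endothelial cells and position cells at rest, such as Cxcl12, Cx3cl1 and Cxcl14. Others are made after injury or inflammation, among them the CC ligands of monocytes and the CXC ligands of neutrophils, whose genes lie in clusters and are induced in part through the transcription factor NF-kB. In the pressure-overloaded heart, Ccl2 and its receptor Ccr2 are best known for bringing in monocytes.

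The libraries held 18063344 to 21093163 counted reads, and even 2 libraries of the same group differed well beyond counting error. Summed levels of 6 cardiomyocyte marker genes were 16397 to 28940 CPM (counts scaled to library depth by TMM) with anti-PD-1, against 25269.6 to 33286 with anti-IgG, and none of these genes was at 0. All 42 ligand genes together had 13895, 7969 and 11437 reads with anti-PD-1, against 9084, 7339 and 9232 with anti-IgG, in the order of library numbers 1 to 3 that is kept throughout. Cxcl12 alone took 78.4, 82.9 and 80.1% of these reads with anti-PD-1, against 82.3, 64.1 and 67.1% with anti-IgG. The other ligand genes together had 3002, 1360 and 2277 reads with anti-PD-1, against 1611, 2635 and 3040 with anti-IgG. Anti-PD-1 library 2 and anti-IgG library 1 were thus the lowest of their groups, and the sums of the groups overlapped.

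Of the 42 ligand genes, 25 had at least 10 reads over the 6 libraries, 8 had 1 to 9 reads and 9 had none. The edgeR quasi-likelihood test was run on the 14667 genes of the whole table with enough reads, among them 18 ligand genes, which held 99.5% of the ligand reads. Of all tested genes, 21.0% had an adjusted p under 0.05, 10.3% rising and 10.8% falling with anti-PD-1. Of the 18 tested ligand genes, 1 passed, which is 5.56%: Ccl27a fell, none rose by edgeR, and 17 did not pass. DESeq2 called no rise among 17 of the 18 and gave no adjusted p for Cxcl5 (log2 fold change 3.63). At an unadjusted edgeR p under 0.05 stood 4 of the 18 (Ccl27a, a scaffold copy of Ccl21a, Cxcl5 and Ccl12), against 36.9% of all tested genes. With TMM scaling, groups were free of overlap in 1 of the 18, again Ccl27a, against 41.0% of all tested genes.

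The median log2 fold change (anti-PD-1 over anti-IgG) of the 18 was -0.35, with 12 below 0 and 6 above, beside -0.03 over all tested genes, but it turned to 0.20 once each library's trend with gene length was removed and to 0.40 with the trend of transcript length removed, when 12 and 13 of the 18 lay above 0. The tested ligand genes are short in the deposited annotation, with a median of 1811 bp against 4189 bp over all tested genes. Without anti-PD-1 library 1 the median was -0.70, and without anti-IgG library 3 it was -0.09. With the transcript length trend removed, the log2 fold changes of Cxcl14, Ccl6, Ccl2, Ccl12, Ccl8, Ccl25, Ccl5 and Ccl11 turned above 0 and that of Cx3cl1 turned below it.

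**Figure D1:**
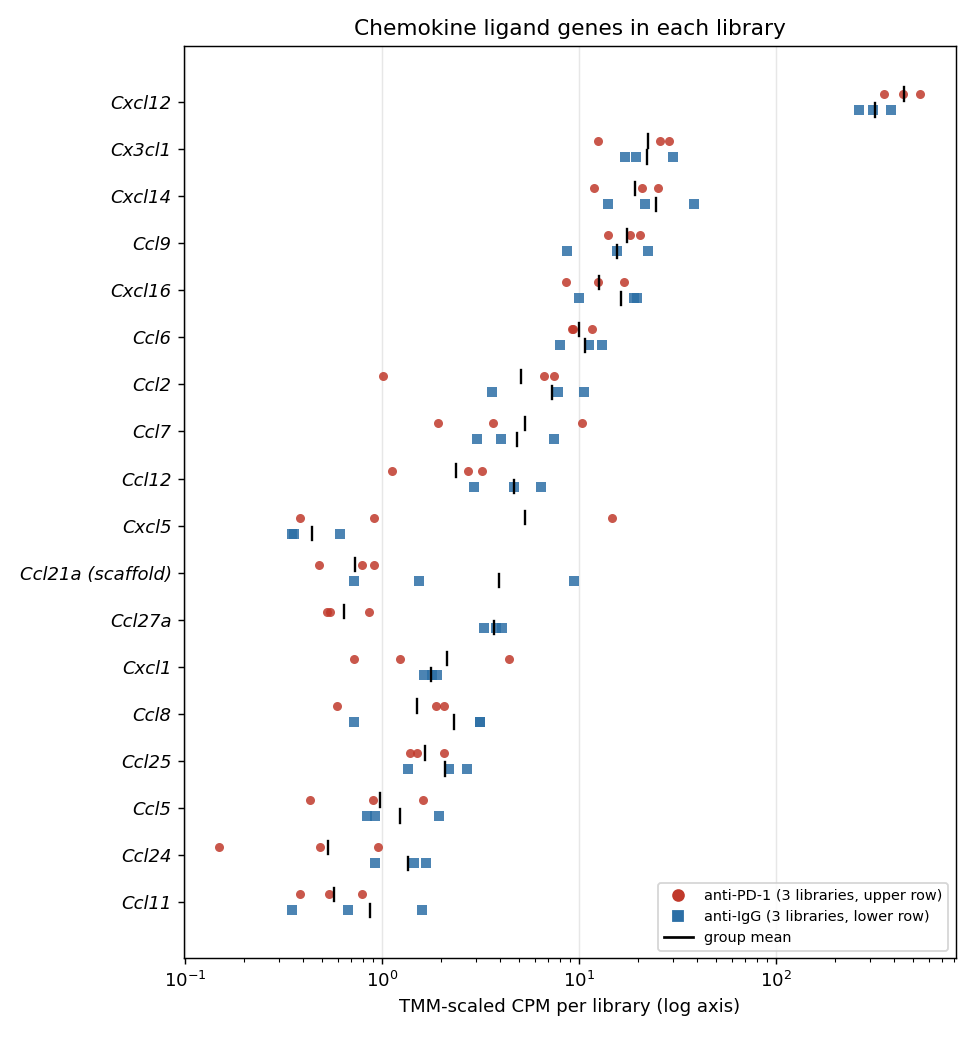
Level of each tested chemokine ligand gene in each library, in TMM-scaled CPM on a log axis. Red circles in the upper row of each gene are anti-PD-1 libraries, blue squares in the lower row anti-IgG libraries, and black bars the group means (n = 3 each). Cxcl12 stands above 260 CPM in every library and Ccl27a is the single gene whose groups do not overlap, whereas Cxcl5 and the scaffold copy of Ccl21a each have 1 library far from the others.

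Ccl27a encodes a chemokine best known from skin, where keratinocytes make it and T cells bearing its receptor Ccr10 respond to it. Its gene at chr4:41769467-41774247 (mm10, minus strand) also gives rise to a form that is not secreted, from a start farther upstream. RefSeq lists 3 starts, with the outer ones 3964 bp apart, and GENCODE M21 has 19 transcripts. The bases just upstream of the farthest and the nearest RefSeq start (GRCm38.p6, which has the coordinates of mm10) are shown because the counts per gene cannot tell transcripts from these starts apart. They are all in lower case because no motif is marked.
Ccl27a far start, chr4:41774258-41774337, minus strand: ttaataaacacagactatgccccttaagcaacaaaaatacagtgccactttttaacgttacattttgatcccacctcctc
Ccl27a near start, chr4:41770271-41770350, minus strand: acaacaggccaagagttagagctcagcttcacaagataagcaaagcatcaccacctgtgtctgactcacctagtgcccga

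Ccl27a had 11, 16 and 11 reads with anti-PD-1, against 74, 59 and 81 with anti-IgG. Every anti-PD-1 library lay far below every anti-IgG library. The mean level was 0.646 ± 0.185 CPM with anti-PD-1, against 3.72 ± 0.382 CPM with anti-IgG (SD, n = 3 each). This was a log2 fold change of -2.52 (with SE 0.39, adjusted p = 0.00513 by edgeR), and it was lower in 3 of 3 libraries. With each library left out in turn the value ran from -2.76 to -2.39, with edgeR adjusted p from 0.00517 to 0.0281. Over all tested genes, the share called was 5.53% with the transcript length trend removed, 6.38% when anti-PD-1 library 1 was left out, 3.57% when anti-IgG library 2 was, 3.39% on log2(FPKM + 0.1) and 0.00763% on log2(FPKM + 1), and Ccl27a was called in each of these but the last. Its log2 fold change was -2.19 (adjusted p = 0.0118 by edgeR) with the gene length trend removed and -1.68 (adjusted p = 0.0323 by edgeR) with the transcript length trend removed. In bulk tissue, fewer cells of a type and less RNA per cell cannot be told apart.

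Copies and neighbours can touch this count. The copies of Ccl27a on the scaffolds had 1 and 0 reads and the near copy Ccl27b had 1, so few reads were assigned to them, but reads that fit several copies equally may have been split or dropped. Il11ra1, the receptor gene for interleukin 11 on the opposite strand, shares 8 exon bases with Ccl27a, and the sources used here do not say whether strand was used in counting. Il11ra1 had 1045, 1034 and 872 reads with anti-PD-1, against 1275, 996 and 1279 with anti-IgG. Its log2 fold change was -0.31 (with SE 0.18, adjusted p = 0.221 by edgeR). Ccr10 had 13, 16 and 6 reads with anti-PD-1, against 6, 4 and 16 with anti-IgG, and the groups overlapped (log2 fold change 0.40 with SE 0.65, adjusted p = 0.689 by edgeR). Ccl28, the other ligand of Ccr10, was below the count filter and had 16, 7 and 4 reads with anti-PD-1, against 9, 6 and 8 with anti-IgG.

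Cxcl12, which attracts and retains lymphocytes, stem cells and other cells that bear Cxcr4, was the most abundant chemokine ligand by far. Per length, in the FPKM deposited by the authors, it stood at 51.7 ± 11.5 with anti-PD-1, against 36.3 ± 7.19 with anti-IgG (SD, n = 3 each), and the next highest ligand, Cxcl14, at 10.1 ± 3.64 and 12.6 ± 6.32. Next in order per length with anti-PD-1 were Ccl7 (6.33 ± 5.35 FPKM), Ccl9 (5.46 ± 1.07), Cx3cl1 (5.41 ± 2.16) and Ccl6 (5.30 ± 0.616), neighbours that did not differ beyond their spread. Cxcl12 had 10893, 6609 and 9160 reads with anti-PD-1, against 7473, 4704 and 6192 with anti-IgG. Scaled to depth, anti-PD-1 library 2 fell below anti-IgG library 1, so the groups overlapped. The log2 fold change was 0.48 (with SE 0.23, adjusted p = 0.149 by edgeR), and it remained above 0 without any 1 library, between 0.33 and 0.64. The summed level of 6 marker genes of fibroblasts, a main source of Cxcl12, was 2930, 1770 and 3168 CPM with anti-PD-1, against 1560, 2338 and 2275 with anti-IgG. That of 6 blood endothelial marker genes was 1513, 1163 and 1392 CPM with anti-PD-1, against 1442, 1287 and 1315 with anti-IgG. The part of either cell type in the Cxcl12 values was not tested.

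Cxcl14, a CXC ligand of stromal cells and adipose tissue, had 507, 223 and 436 reads with anti-PD-1, against 275, 388 and 764 with anti-IgG. Its highest and its second lowest library were both anti-IgG (log2 fold change -0.35 with SE 0.38, adjusted p = 0.536 by edgeR). Cx3cl1, the membrane-bound fractalkine that binds Cx3cr1 on monocytes and resident macrophages, had 578, 233 and 538 reads with anti-PD-1, against 336, 347 and 600 with anti-IgG. The groups overlapped over most of their range, and the log2 fold change was 0.01 (with SE 0.32, adjusted p = 0.986 by edgeR). Cxcl16, a second membrane-bound ligand and the partner of Cxcr6, had 340, 160 and 260 reads with anti-PD-1, against 195, 354 and 382 with anti-IgG. The 2 highest libraries were anti-IgG, yet anti-IgG library 1 lay near the lowest (log2 fold change -0.36 with SE 0.31, adjusted p = 0.419 by edgeR). Of the exon bases of Cxcl16, 552 are shared with Zmynd15 on the opposite strand, which had 42 to 74 reads with anti-PD-1, against 52 to 71 with anti-IgG.

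Ccl25, a ligand of Ccr9 known from thymus and small intestine, had 28, 28 and 43 reads with anti-PD-1, against 53, 39 and 27 with anti-IgG. The groups overlapped (log2 fold change -0.33 with SE 0.40, adjusted p = 0.586 by edgeR), and 204 of its exon bases are shared with the far more abundant Elavl1 on the opposite strand. Cxcl13, the ligand of Cxcr5 on B cells, was below the count filter with 5, 3 and 3 reads with anti-PD-1, against 7, 4 and 2 with anti-IgG. The ratio of a gene's shares of all reads, anti-PD-1 over anti-IgG, was 0.796 for Cxcl13 and 1.10 for Ccl28, with exact conditional binomial 95% intervals of 0.323 to 1.93 and 0.610 to 2.02. These intervals cover counting error only, here and below.

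The CC ligands of monocytes and eosinophils lie side by side on chromosome 11, in the order Ccl2, Ccl7, Ccl11, Ccl12, Ccl8, and 0 of the 5 passed in the edgeR and DESeq2 fits, Ccl12 alone having an unadjusted edgeR p under 0.05. Of all tested genes, 21.0% passed by edgeR, 25.5% passed by DESeq2 and 36.9% had an unadjusted edgeR p under 0.05. The summed reads of the 5 ligand genes were 479, 97 and 322 in the anti-PD-1 libraries, against 232, 506 and 400 in the anti-IgG libraries. Anti-PD-1 library 2 was the lowest library for Ccl2, Ccl7, Ccl12 and Ccl8 alike. The upstream letters of Ccl8 and Ccl12, from RefSeq (GRCm38.p6), are shown because these neighbours were low in the same library. Capitals mark TATAAA, searched on the gene's own strand in the last 50 bases before the start, which 2.63% of all RefSeq mouse promoters and 7 of 31 ligand gene promoters hold.
Ccl8, chr11:82115085-82115184, plus strand: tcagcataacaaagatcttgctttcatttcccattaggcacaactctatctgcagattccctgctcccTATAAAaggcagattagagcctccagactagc
Ccl12, chr11:82101745-82101844, plus strand: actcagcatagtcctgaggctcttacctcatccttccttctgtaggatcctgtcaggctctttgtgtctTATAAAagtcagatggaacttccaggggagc

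Ccl2 had 151, 19 and 138 reads with anti-PD-1, against 71, 189 and 156 with anti-IgG. Library 2 of anti-PD-1 stood apart at the low end, and the others intermingled (log2 fold change -0.53 with SE 0.65, adjusted p = 0.590 by edgeR). Without anti-PD-1 library 2 the log2 fold change of Ccl2 was -0.03 (adjusted p = 0.969 by edgeR). Ccl7, a ligand of Ccr2 like Ccl2, had 209, 36 and 76 reads with anti-PD-1, against 59, 134 and 80 with anti-IgG. Its highest and its lowest library were both anti-PD-1, and the log2 fold change was 0.14 (with SE 0.58, adjusted p = 0.884 by edgeR). Ccl12, a mouse ligand of Ccr2 close to Ccl2, had 65, 21 and 57 reads with anti-PD-1, against 57, 115 and 94 with anti-IgG. Scaled to depth, only anti-PD-1 library 1 exceeded the lowest anti-IgG library. The level of Ccl12 was 2.37 ± 1.11 CPM with anti-PD-1, against 4.70 ± 1.76 CPM with anti-IgG, and the log2 fold change of -0.98 (with SE 0.43, adjusted p = 0.122 by edgeR) turned to 0.15 with the transcript length trend removed.

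Ccl8, a ligand of Ccr8 in mouse, had 38, 11 and 43 reads with anti-PD-1, against 14, 56 and 63 with anti-IgG. In each group 1 library was low and 2 were high (log2 fold change -0.61 with SE 0.60, adjusted p = 0.488 by edgeR). Ccl11, or eotaxin, which draws eosinophils through Ccr3, had 16, 10 and 8 reads with anti-PD-1, against 31, 12 and 7 with anti-IgG. Its log2 fold change of -0.60 (with SE 0.62, adjusted p = 0.514 by edgeR) rested on anti-IgG library 1, and without that library it was 0.17. The other eosinophil-attracting gene, Ccl24 on chromosome 5, had 3, 9 and 20 reads with anti-PD-1, against 18, 30 and 29 with anti-IgG. With TMM scaling the groups of Ccl24 overlapped narrowly, anti-PD-1 library 3 lying at 0.962 CPM and anti-IgG library 1 at 0.924 CPM, and on the unscaled totals they did not overlap. Ccl24 passed the count filter through the anti-IgG libraries, since its 3 and 9 reads in anti-PD-1 libraries 1 and 2 fell short of it. The log2 fold change of Ccl24 was -1.33 (with SE 0.61, adjusted p = 0.136 by edgeR). It ran from -2.08 to -0.88 when single libraries were dropped, and it was -0.72 and -0.71 after removal of the gene and the transcript length trend (edgeR adjusted p = 0.441 and 0.472).

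Markers of monocytes and macrophages, the main receivers and a source of these ligands, summed to 327, 300 and 308 CPM over 14 genes with anti-PD-1, against 264, 470 and 455 CPM with anti-IgG. Of these 14 markers 1 rose, 3 fell and 10 did not pass, beside 10.3% rising and 10.8% falling of all tested genes. The 3 that fell were C1qa, C1qb and C1qc, subunits of complement C1q, and each call was lost in 5 of the 6 fits that leave out 1 library and after removal of the gene length trend (edgeR adjusted p = 0.211, 0.632 and 0.137) or the transcript length trend (0.222, 0.713 and 0.356). The one that rose was Adgre1, the macrophage surface protein F4/80, at 0.97 on the log2 scale (adjusted p = 0.0183 by edgeR), also called after removal of either trend (0.0161 and 0.0260) but not without library 1 or 3 of anti-PD-1 or anti-IgG library 2 (0.0680, 0.0542 and 0.0866). Anti-IgG library 1 was the lowest anti-IgG library both in this sum and in the ligand cluster, while anti-PD-1 library 2 was low in the ligands and near the other anti-PD-1 libraries in the marker sum. The part of these cells in the ligand values was not tested.

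Ccl6 and Ccl9, CC ligands that rodents make in myeloid cells and that bind Ccr1, did not set the groups apart. Ccl6 had 186, 217 and 194 reads with anti-PD-1, against 157, 200 and 263 with anti-IgG. All 3 anti-PD-1 libraries lay inside the anti-IgG range (log2 fold change -0.10 with SE 0.24, adjusted p = 0.790 by edgeR). Ccl9 had 409, 262 and 379 reads with anti-PD-1, against 169, 402 and 312 with anti-IgG. Here too the anti-PD-1 values lay inside the anti-IgG range once scaled to depth, and the log2 fold change was 0.17 (with SE 0.31, adjusted p = 0.723 by edgeR).

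**Figure D2:**
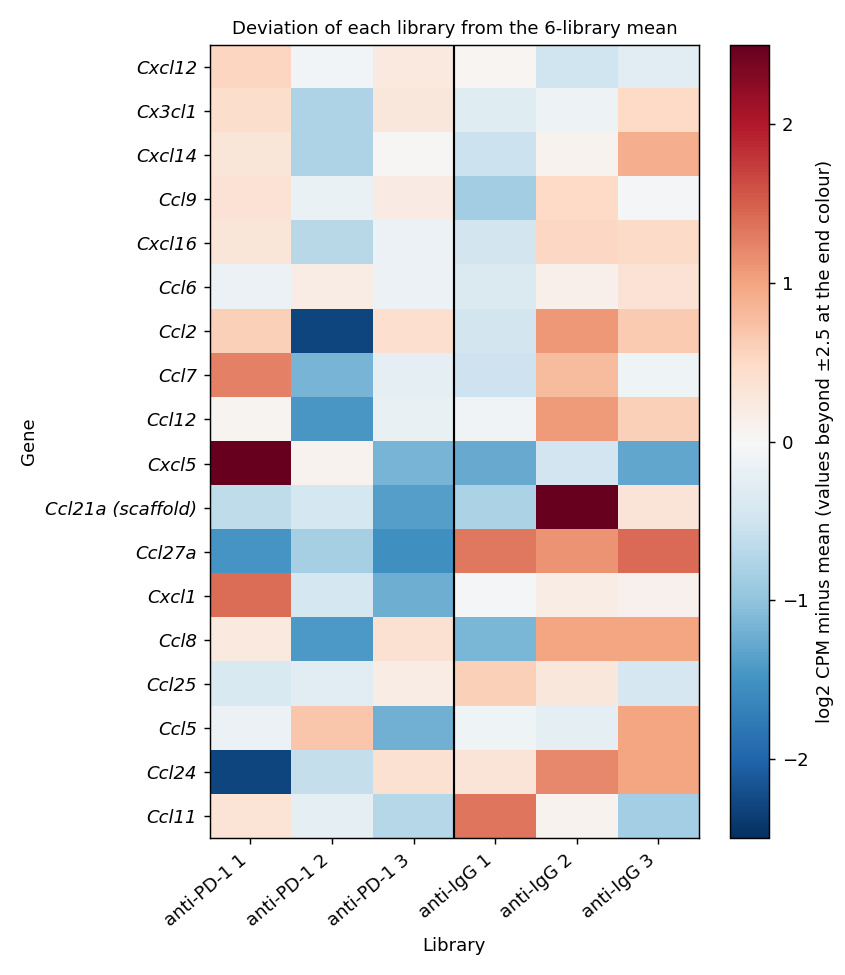
Deviation of each library from the mean over the 6 libraries for the 18 tested ligand genes, as log2 CPM, with anti-PD-1 libraries left of the black line and anti-IgG libraries right of it. Red is above and blue below the gene's mean. Ccl27a is below its mean in all 3 anti-PD-1 libraries and above it in all 3 anti-IgG libraries, and anti-PD-1 library 2 is the lowest library for 7 genes.

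Some libraries were the extreme one for many ligand genes at once. Of the 18 tested ligand genes, anti-PD-1 library 2 was the lowest for 7 and the highest for 0, and anti-IgG libraries 2 and 3 were each the highest for 6. Over all tested genes, anti-PD-1 library 2 was the lowest for 14.6% and the highest for 19.0%, and anti-IgG libraries 2 and 3 were the highest for 19.5 and 20.6%. By the rule used here, 3 tested genes rested on 1 library, namely Cxcl5, the scaffold copy of Ccl21a and Ccl11, and a scaffold copy of Ccl21c below the count filter did as well. The rule asked whether 1 library held over 50% of a gene's reads, or whether leaving it out made or ended a call or turned a log2 fold change of at least 0.5.

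Cxcl5, a CXC ligand that draws neutrophils through Cxcr2, had 295, 17 and 8 reads with anti-PD-1, against 7, 11 and 7 with anti-IgG. Anti-PD-1 library 1 held 85.5% of all its reads, and the other 5 libraries lay between 0.351 and 0.913 CPM. The log2 fold change was 3.58 (with SE 1.40, adjusted p = 0.113 by edgeR), and leaving out libraries in turn moved it between 0.55 and 4.14. Without anti-PD-1 library 3, which kept the high library, it was called (4.14, adjusted p = 0.0430 by edgeR), and without anti-PD-1 library 1 the value was 0.55 (adjusted p = 0.637 by edgeR). Cxcl1, a second ligand of Cxcr2, was highest in the same library, with 89, 23 and 15 reads with anti-PD-1, against 32, 34 and 36 with anti-IgG. Both other anti-PD-1 libraries of Cxcl1 lay below all 3 anti-IgG libraries. Its log2 fold change was 0.26 (with SE 0.59, adjusted p = 0.785 by edgeR), and it turned to -0.86 without anti-PD-1 library 1.

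Cxcl2 and Cxcl3, further ligands of Cxcr2 in the same cluster on chromosome 5, were below the count filter. Cxcl2 had 6, 5 and 11 reads with anti-PD-1, against 3, 17 and 8 with anti-IgG, and Cxcl3 had 1 read in all. The highest library of Cxcl2 was anti-IgG library 2, not the one in which Cxcl5 and Cxcl1 were high. The upstream letters of Cxcl1, Cxcl2 and Cxcl3 (RefSeq, GRCm38.p6) are printed because these 3 promoters carry the same letters of the NF-kB binding site while the genes differed in reads. Capitals mark GGGAATTTCC, an exact form of the kappa-B motif, at -71 to -62, -97 to -88 and -73 to -64 from the start.
Cxcl1, chr5:90891125-90891239, plus strand: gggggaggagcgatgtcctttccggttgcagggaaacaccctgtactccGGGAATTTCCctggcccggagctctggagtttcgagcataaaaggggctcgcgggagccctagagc
Cxcl2, chr5:90903759-90903869, plus strand: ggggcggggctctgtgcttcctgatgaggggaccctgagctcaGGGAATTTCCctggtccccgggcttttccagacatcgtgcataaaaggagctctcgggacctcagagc
Cxcl3, chr5:90785981-90786100, plus strand: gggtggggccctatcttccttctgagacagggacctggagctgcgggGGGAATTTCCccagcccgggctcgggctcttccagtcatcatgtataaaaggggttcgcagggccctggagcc

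Promoters were found in RefSeq for 25 of the 36 ligand symbols, as 31 starts. In the 250 bases before the start, on either strand, GGGAATTTCC stood in 3 of these 31 and in 0.0852% of all 32851 promoters in the RefSeq table. The degenerate kappa-B consensus, of which these letters are 1 form, stood in 5 of the 31, those of Cxcl1, Cxcl2, Cxcl3, Ccl20 and Ccl9, and in 3.90% of all promoters. At Cxcl1, Cxcl2 and Cxcl3 the consensus was met on both strands by overlapping letters. A match describes letters and says nothing of binding in these ventricles.

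The summed markers of neutrophils, the cells that Cxcr2 ligands attract, were highest in the same library, largely through S100a8. Summed over 12 genes, they stood at 25.4, 3.11 and 4.91 CPM with anti-PD-1, against 15.4, 3.76 and 6.72 CPM with anti-IgG. Of the 12 markers, 4 had enough reads to be tested, and Elane had no read. Of the 4, 0 passed in the edgeR and DESeq2 fits and 0 had an unadjusted edgeR p under 0.05. Of all tested genes, 21.0% passed by edgeR and 36.9% had an unadjusted edgeR p under 0.05. S100a8, an abundant neutrophil protein, had 200, 7 and 24 reads with anti-PD-1, against 87, 6 and 28 with anti-IgG. The marker S100a9, by contrast, stood at 3.69 CPM in anti-PD-1 library 1, against 4.31 CPM in anti-IgG library 1 (log2 fold change -0.33), and Mmp9 at 2.00 against 2.05 CPM. Cxcr2 itself had 54, 2 and 8 reads with anti-PD-1, against 13, 4 and 6 with anti-IgG. Anti-IgG library 1 ranked second in S100a8 and Cxcr2 without a high Cxcl5 count, and the part of neutrophils in the Cxcl5 values was not tested.

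**Figure D3:**
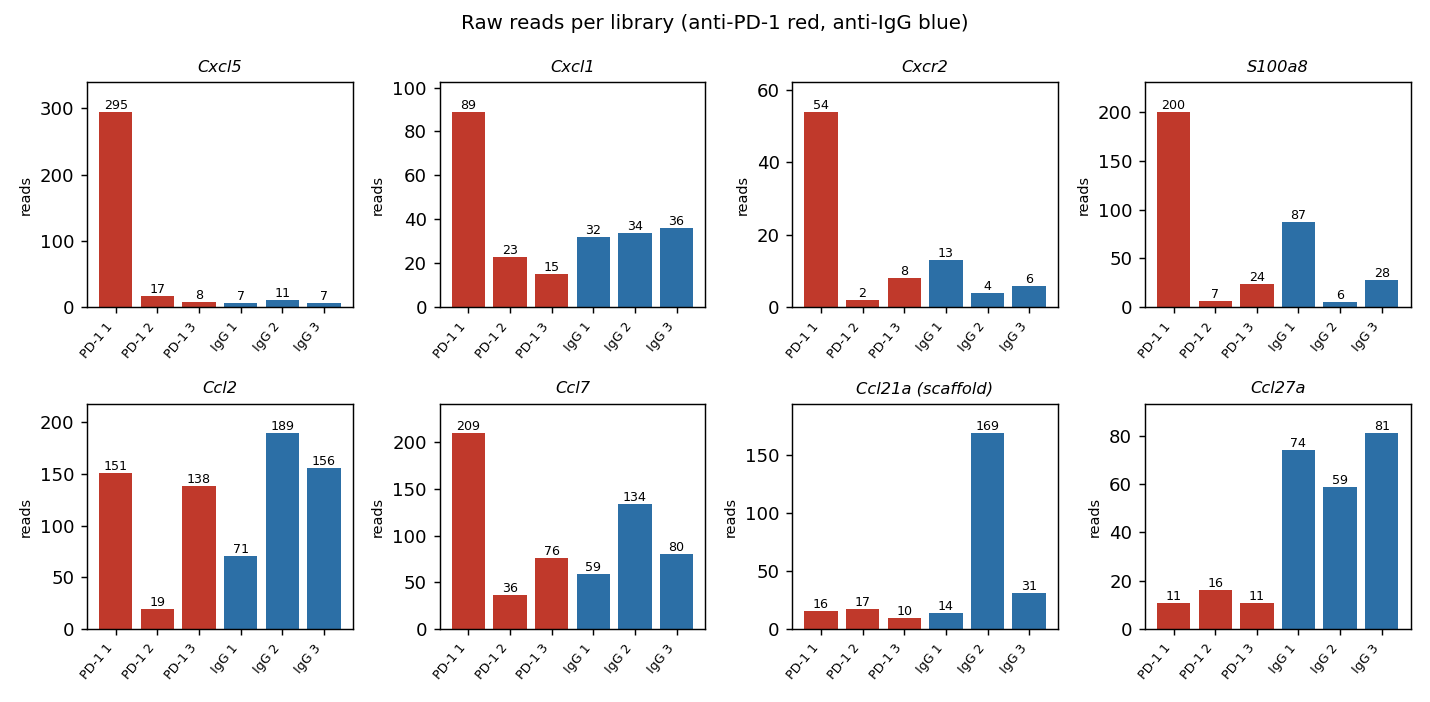
Raw reads in each library for 6 ligand genes, the receptor gene Cxcr2 and the neutrophil gene S100a8, with anti-PD-1 libraries in red at the left and anti-IgG libraries in blue at the right, and each bar's count above it. Cxcl5, Cxcl1, Cxcr2 and S100a8 are highest in anti-PD-1 library 1, Ccl2 and Ccl7 are lowest in anti-PD-1 library 2, the scaffold copy of Ccl21a rests on anti-IgG library 2, and Ccl27a is low in all 3 anti-PD-1 libraries.

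Ccl21, made by lymphatic endothelium and lymph node stroma, guides dendritic cells and T cells that bear Ccr7. The mouse genome holds several copies that differ in few bases. In the coding sequence, the GENCODE M21 models of Ccl21a and Ccl21b on chromosome 4 were 99.5% identical over 402 bases, with T84A and C194T as the only mismatches, counted from 1 at the first coding base with the Ccl21a base first. Coding bases 54 to 113 of both are shown, with the differing base in capitals, because within this stretch the copies differ at that base alone.
Ccl21a: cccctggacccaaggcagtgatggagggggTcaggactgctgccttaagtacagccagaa
Ccl21b: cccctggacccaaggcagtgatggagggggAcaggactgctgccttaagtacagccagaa

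The copy of Ccl21a on scaffold JH584294.1 had 16, 17 and 10 reads with anti-PD-1, against 14, 169 and 31 with anti-IgG. Anti-IgG library 2 held 65.8% of them, and anti-IgG library 1 lay within the anti-PD-1 range. The log2 fold change was -2.41 (with SE 0.88, adjusted p = 0.0823 by edgeR), and it was -0.66 (adjusted p = 0.512 by edgeR) without anti-IgG library 2. It was called without anti-IgG library 1 (-2.90, adjusted p = 0.0156 by edgeR) and by DESeq2 (-2.39, adjusted p = 0.00639). The copy of Ccl21c on scaffold GL456350.1 had 2, 1 and 0 reads with anti-PD-1, against 0, 12 and 2 with anti-IgG, so 70.6% of its reads stood in that same anti-IgG library 2. GENCODE M21 names this row Ccl21b, so which copy it is remains uncertain. Ccl21a on chromosome 4 had 2, 0 and 0 reads with anti-PD-1, against 0, 2 and 2 with anti-IgG, and the other Ccl21b and Ccl21c rows had none. How reads were divided among these copies is uncertain.

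Lymphatic endothelial markers were read beside these copies, and the part of these cells in the Ccl21a values was not tested. Their sum over 6 genes was 218, 167 and 186 CPM with anti-PD-1, against 159, 139 and 121 CPM with anti-IgG. Of 8 thymus and lymph node markers 3 were tested and 0 passed in the edgeR and DESeq2 fits, with 1 at an unadjusted edgeR p under 0.05. Of all tested genes, 21.0% passed by edgeR and 36.9% had an unadjusted edgeR p under 0.05. The 8 markers summed to 1.65, 2.09 and 2.60 CPM with anti-PD-1, against 4.83, 2.92 and 3.86 CPM with anti-IgG. Rag1, Foxn1 and Glycam1 had no read. Ccr7 was below the count filter, with 5, 9 and 8 reads with anti-PD-1, against 12, 5 and 29 with anti-IgG. Ccl19, the other ligand of Ccr7, had no read under either of its rows, which allows up to 3 reads in a library, or 0.142 to 0.166 CPM on the unscaled library totals.

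Ccl5, Ccl3 and Ccl4 are made by activated T cells, NK cells and macrophages. Ccl5 had 18, 30 and 9 reads with anti-PD-1, against 18, 15 and 39 with anti-IgG. The lowest library was anti-PD-1 and the highest anti-IgG, with the rest intermingled (log2 fold change -0.35 with SE 0.56, adjusted p = 0.687 by edgeR). Ccl4, below the count filter, had 0, 6 and 4 reads with anti-PD-1, against 6, 12 and 24 with anti-IgG. On the unscaled library totals every anti-PD-1 library lay below every anti-IgG library, but in the deposited FPKM anti-PD-1 library 2 (0.452) lay above anti-IgG library 1 (0.437), so the gap hung on the scaling. The ratio of read shares for Ccl4 was 0.224 (95% interval 0.1002 to 0.454), and the exact 2-sided permutation p on the unscaled totals was 0.1, the smallest that 3 against 3 libraries allow.

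Ccl3 had 3, 2 and 8 reads with anti-PD-1, against 1, 16 and 11 with anti-IgG. Anti-IgG library 1 was the lowest of all 6, so the groups overlapped, and the ratio was 0.437 (95% interval 0.208 to 0.871, exact 2-sided permutation p = 0.4). T and NK cell markers summed to 5.29, 4.72 and 4.62 CPM over 11 genes with anti-PD-1, against 6.42, 8.36 and 7.97 CPM with anti-IgG. Of the 5 tested, 2 fell by edgeR (Trac and Cd2), beside 10.8% of all tested genes, whereas DESeq2 called 1. Cd8a went the other way without passing (log2 fold change 0.85, adjusted p = 0.216 by edgeR). Its groups did not overlap, as in 41.0% of all tested genes. Cd4 (-0.47) and Cd8b1 (-0.80) did not pass either. Cd2 had 1, 2 and 3 reads with anti-PD-1, against 13, 14 and 13 with anti-IgG, and passed the count filter only through anti-IgG. Neither call remained with the transcript length trend removed (Trac -0.58 and Cd2 -2.17, edgeR adjusted p = 0.411 and 0.0769), and that of Trac was lost whichever library was dropped. The call of Cd2 ended when anti-PD-1 library 1 (edgeR adjusted p = 0.0781) or library 2 or 3 of anti-IgG (0.0803 and 0.0515) was dropped. The part of these cells in the values of Ccl4 and Ccl3 was not tested.

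The remaining ligand genes were near or at 0. Ccl22, which draws Ccr4-bearing regulatory T cells, had 9, 2 and 2 reads with anti-PD-1, against 4, 4 and 9 with anti-IgG. Ccl17, the other Ccr4 ligand, had no read with anti-PD-1, against 1, 2 and 2 with anti-IgG. Xcl1, or lymphotactin, had 1 read with anti-PD-1, against 3 with anti-IgG. Ccl1 and Cxcl17 had 1 read each. No read was counted for Ccl20, Ccl26 and Cxcl15, a CXC ligand known from mouse lung. At these depths a difference was not detectable for any of them.

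**Figure D4:**
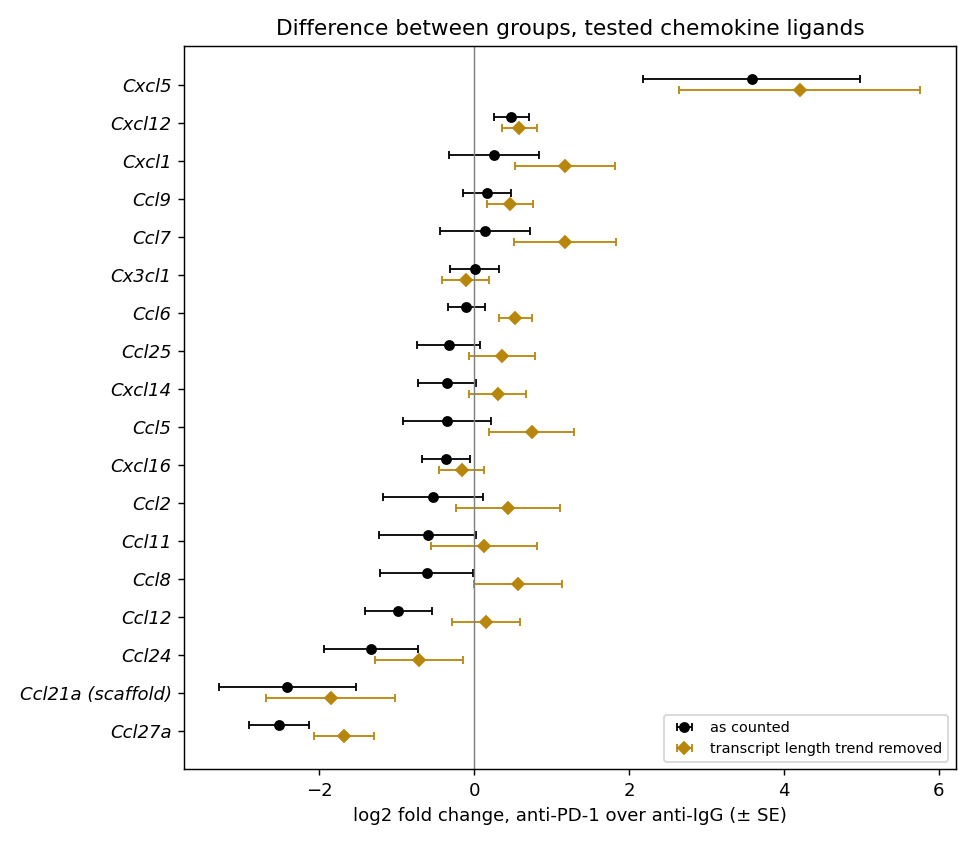
Log2 fold change, anti-PD-1 over anti-IgG, of the 18 tested ligand genes, with bars of 1 SE. Black circles are the values as counted and gold diamonds those with the transcript length trend removed. Ccl27a stays below 0 on both scales (-2.52 and -1.68), Cxcl5 has the widest bars, and 13 of 18 genes lie above 0 after the trend is removed, against 6 as counted.

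Of the 18 conventional chemokine receptor genes listed, 8 were tested, 1 rose, 1 fell and 6 did not pass. Of all tested genes, 10.3% rose and 10.8% fell. Cxcr4, the receptor of Cxcl12, had 111, 70 and 170 reads with anti-PD-1, against 361, 276 and 331 with anti-IgG. Every anti-PD-1 library lay below every anti-IgG library, and groups were free of overlap in 41.0% of all tested genes. Cxcr4 fell with a log2 fold change of -1.53 (with SE 0.28, adjusted p = 0.00739 by edgeR), and it remained called without any 1 library and with either length trend removed, at -1.04 for gene length and -1.27 for transcript length. Its ligand Cxcl12 did not pass, at 0.48. B cell markers, from cells that bear Cxcr4, summed to 11.7, 10.4 and 15.8 CPM over 6 genes with anti-PD-1, against 25.7, 28.5 and 32.0 CPM with anti-IgG. Of these 6 markers 4 fell, beside 10.8% of all tested genes. Once the transcript length trend was taken out, Cd79a was still called (edgeR adjusted p = 0.0412) and Ighm, Ighd and Cd79b were not (0.148, 0.0555 and 0.0923). Cd79a had 0, 2 and 3 reads with anti-PD-1, against 17, 10 and 52 with anti-IgG, and passed the count filter only through anti-IgG. Cd79b had 8, 4 and 11 reads with anti-PD-1, against 39, 16 and 43 with anti-IgG. It also passed the filter through anti-IgG, since its 8 and 4 reads in anti-PD-1 libraries 1 and 2 fell short of it. Each of the 4 calls was lost in at least 2 of the 6 fits that leave out 1 library. The part of B cells in the Cxcr4 values was not tested.

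Cxcr6, the receptor of Cxcl16 on T cells and NKT cells, had 45, 43 and 80 reads with anti-PD-1, against 23, 7 and 22 with anti-IgG. The anti-IgG libraries alone did not meet the count filter, since the 7 reads in anti-IgG library 2 fell short of it. All anti-PD-1 libraries lay above all anti-IgG libraries, and groups were free of overlap in 41.0% of all tested genes. The rise was 1.64 on the log2 scale (with SE 0.48, adjusted p = 0.0342 by edgeR), and 1.84 (adjusted p = 0.0462 by edgeR) with the transcript length trend removed. The call was lost without library 1 or 3 of anti-PD-1 (edgeR adjusted p = 0.0670 and 0.122) and without library 2 or 3 of anti-IgG (0.122 and 0.0698). Ccr2, the receptor of Ccl2, Ccl7 and Ccl12, had 302, 155 and 310 reads with anti-PD-1, against 246, 185 and 151 with anti-IgG, and the groups overlapped (log2 fold change 0.33 with SE 0.28, adjusted p = 0.422 by edgeR). Cx3cr1, Ccr1, Xcr1 and Ccr10 did not pass either, with log2 fold changes from -0.05 for Cx3cr1 to 0.64 for Xcr1.

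Atypical receptors bind chemokines without the usual signalling and remove them. Of all tested genes, 21.0% passed by edgeR and 36.9% had an unadjusted edgeR p under 0.05. Of 5 atypical receptors listed, 4 were tested and 0 passed in the edgeR and DESeq2 fits, with 1 at an unadjusted edgeR p under 0.05. That one was Ackr2, a scavenger of inflammatory CC ligands, with 189, 91 and 101 reads with anti-PD-1, against 56, 73 and 84 with anti-IgG. Its groups did not overlap once scaled to depth, as in 41.0% of all tested genes. The log2 fold change of Ackr2 was 0.78 (with SE 0.33, adjusted p = 0.114 by edgeR). It ran from 0.39 to 0.96 when single libraries were left out. Ackr3, which binds Cxcl12 and Cxcl11, was the most counted receptor, with 2940, 2057 and 2194 reads with anti-PD-1, against 2600, 2402 and 2388 with anti-IgG (log2 fold change -0.10 with SE 0.19, adjusted p = 0.744 by edgeR).

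**Figure D5:**
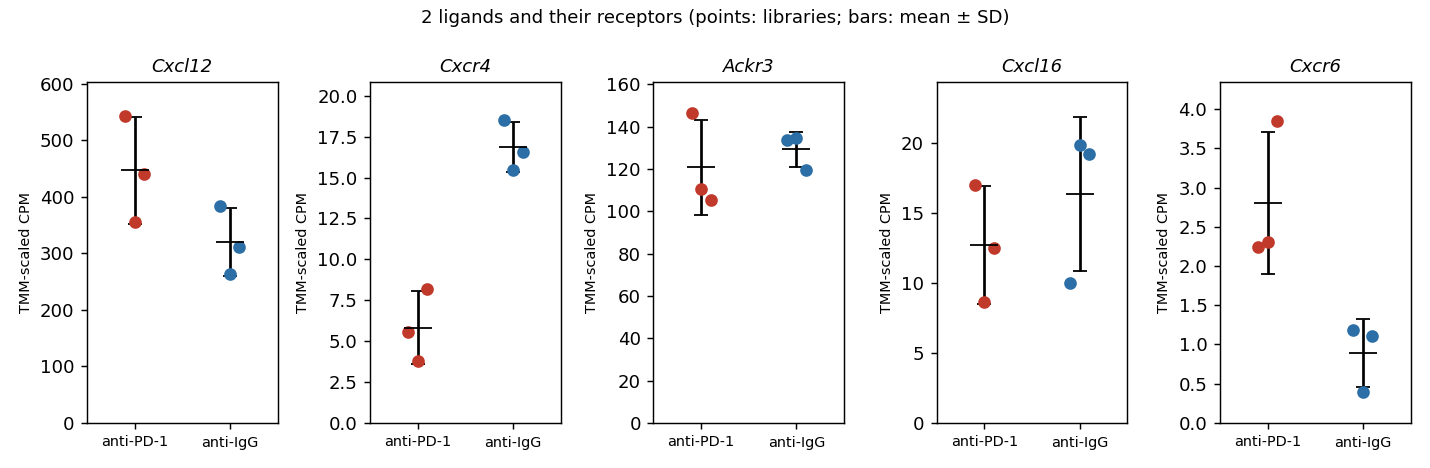
Cxcl12 with its receptors Cxcr4 and Ackr3, and Cxcl16 with its receptor Cxcr6, in TMM-scaled CPM from 0. Points are libraries, with anti-PD-1 at the left and anti-IgG at the right of each panel, and bars are mean ± SD (n = 3 each). The groups are apart for Cxcr4, lower with anti-PD-1, and for Cxcr6, higher with anti-PD-1, and they overlap for both ligands and for Ackr3.

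Inducers of chemokine genes were mostly at low counts. Of all tested genes, 10.3% rose, 10.8% fell and 36.9% had an unadjusted edgeR p under 0.05. Of 17 cytokine and NF-kB feedback genes listed, 12 were tested, 0 rose and 1 fell. DESeq2 also called 1, and 2 (Ltb and Nfkbia) had an unadjusted edgeR p under 0.05. The one that fell was Ltb, a lymphotoxin subunit that drives Ccl21 and Cxcl13 in lymphoid tissue, with 1, 5 and 6 reads with anti-PD-1, against 22, 21 and 31 with anti-IgG. Ltb passed the count filter only through the anti-IgG libraries. The groups were apart, as they were for 41.0% of all tested genes. The log2 fold change of Ltb was -2.63 (with SE 0.61, adjusted p = 0.0155 by edgeR). The call was lost with the transcript length trend removed (-2.03, adjusted p = 0.0659 by edgeR) and when anti-PD-1 library 1 (0.0572) or library 2 or 3 of anti-IgG (0.0622 and 0.0577) was left out. Nfkbia, a feedback inhibitor of NF-kB, did not pass, with a log2 fold change of -0.60 (adjusted p = 0.0564 by edgeR), and it was -0.19 with the transcript length trend removed.

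Some inducers, named after their values were seen, were high or low in the same libraries as the ligands, and others were not. Il6, a cytokine of macrophages and fibroblasts, had 19, 0 and 16 reads with anti-PD-1, against 0, 18 and 15 with anti-IgG, and its 2 libraries without a read were the ones lowest for the Ccl2 cluster in each group. Tnf had 16, 1 and 14 reads with anti-PD-1, against 8, 28 and 13 with anti-IgG, with the same libraries lowest. Nfkbiz, an NF-kB cofactor, had 459, 128 and 170 reads with anti-PD-1, against 154, 283 and 163 with anti-IgG. Like Cxcl5 and Cxcl1, Nfkbiz was highest in anti-PD-1 library 1. Il1b had 57, 9 and 20 reads with anti-PD-1, against 32, 8 and 23 with anti-IgG. It too was highest in anti-PD-1 library 1, yet it was lowest in anti-IgG library 2, where the Ccl2 cluster was highest. None of Il6, Tnf, Nfkbiz and Il1b passed the edgeR test, and Il17a and Il13 had no read.

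Heparan sulfate, the chain that holds chemokines on cells and matrix, was represented by 10 genes, with a median log2 fold change of 0.43. By edgeR 3 rose, 0 fell and 7 did not pass (3 called by DESeq2, 4 at an unadjusted edgeR p under 0.05). Of all tested genes, 10.3% rose, 36.9% had an unadjusted edgeR p under 0.05 and 41.0% had groups free of overlap. Ndst1, an enzyme that sulfates the chain, had 1639, 1531 and 1531 reads with anti-PD-1, against 661, 321 and 545 with anti-IgG. The groups were far apart, at a log2 fold change of 1.58 (with SE 0.23, adjusted p = 0.00417 by edgeR), and the rise remained called with the transcript length trend removed (1.04, adjusted p = 0.0215 by edgeR). Hs2st1, a further sulfating enzyme, and Hspg2, the core protein perlecan, rose by 0.62 and 0.64 on the log2 scale (edgeR adjusted p = 0.0387 and 0.0447). With the transcript length trend removed Hs2st1 stood at 0.27 (adjusted p = 0.357 by edgeR) and Hspg2 at 0.02 (adjusted p = 0.967 by edgeR), so neither call remained. The call of Hspg2 was also lost whichever library was left out (edgeR adjusted p from 0.0510 to 0.159). That of Hs2st1 was lost without library 1 or 3 of anti-PD-1 (0.129 and 0.113) or library 2 or 3 of anti-IgG (0.174 and 0.0849).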

How the data were processed

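The authors deposited raw read counts per gene and FPKM values. Per the labels' protocols, enriched mRNA was fragmented and made into libraries with a NEBNext Ultra kit. Per the submitters' processing notes, featureCounts and mm10 were used, without versions. The aligner and the use of strand are not given in the sources used here. Rows without a gene name (397 rows, 0.124 to 0.227% of reads) were left out. Counts were filtered by filterByExpr, TMM-scaled and tested with edgeR 4.0.16 (quasi-likelihood, robust=TRUE, 2-sided, R 4.3.3), and p-values were Benjamini-Hochberg adjusted over all 14667 tested genes. Means and SDs are of TMM-scaled CPM. The fit was tested on simulated data. Alternatives used DESeq2 1.42.0, limma 3.58.1, other scalings and filters, FPKM with pseudocounts of 1 and 0.1, a replicate block, gene length trends (splines, 5 degrees of freedom, prior count 2) and each library left out. The trend with transcript length (coding plus the trailing noncoding part, GENCODE M21) was chosen after seeing the data. Python 3.11.15 with scipy 1.17.1 gave the exact intervals and permutation tests. Every tested ligand gene was named, as were untested ones with at least 10 reads. From other lists, the genes past the threshold were named, and further ones after their values were seen. Members and lists were chosen with earlier results of these data known. Gene coordinates in the table and in GENCODE M21 were the same for 42 of 42 genes. The values of 1 listed gene are not reported here.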

Additional observations from a re-analysis of the deposited data

How the results depend on the processing

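Ccl27a was the single ligand gene called under RLE and upper quartile scaling, the filter of 1 CPM in 3 libraries, limma-voom, log2(FPKM + 0.1), both length trends and the replicate block. The number called was 2 with no count filter, with DESeq2 (both added Ccl21a on its scaffold) and with robust=FALSE (which added Cxcl5), and 0 with limma-trend on log2(FPKM + 1), which called 2 genes in the whole table. It was 1 to 2 with each library left out. Receptors called were 2, but 0 on log2(FPKM + 1), 1 on log2(FPKM + 0.1) and 1 to 2 with each library left out. Of 330 alternative values of the 18 genes, 281 kept direction and call, 1 lost its call (Ccl27a on log2(FPKM + 1), -0.97, adjusted p = 0.0524), 5 gained one and 43 changed sign. With the gene length trend removed, the sign changed for Cxcl14 (0.19), Ccl6 (0.41), Ccl2 (0.22), Ccl8 (0.23), Ccl5 (0.38) and Ccl11 (0.046). With the transcript length trend removed it changed for Cx3cl1 (-0.11), Cxcl14 (0.30), Ccl6 (0.53), Ccl2 (0.44), Ccl12 (0.15), Ccl8 (0.57), Ccl25 (0.36), Ccl5 (0.74) and Ccl11 (0.13). Cx3cl1 was -0.073 with upper quartile scaling, -0.0025 with the 1 CPM filter, -0.033 with limma-voom, -0.0010 on log2(FPKM + 1) with and without the FPKM filter, and -0.012 on log2(FPKM + 0.1). Ccl7 was -0.071 with limma-voom, -0.072 on log2(FPKM + 0.1) and -0.030 on log2(FPKM + 1) with and without the filter. Cxcl1 was -0.17 with limma-voom and -0.093 on log2(FPKM + 0.1). With each library left out, sign changes lay within -0.21 to 0.31 for Cx3cl1, -0.63 to 0.13 for Cxcl14, -0.11 to 0.52 for Ccl9, -0.27 to 0.069 for Ccl6, -0.78 to 0.60 for Ccl7, -0.86 to 0.68 for Cxcl1, -0.88 to 0.14 for Ccl5 and -0.98 to 0.17 for Ccl11. The causes were not tested. Correlations of deviations were 0.126, -0.144 and 0.213 for libraries of equal replicate number and -0.345 to 0.201 for unequal ones. With 3 libraries per group these values cannot settle whether the numbers pair the libraries. The replicate block called 22.8% of all tested genes, against 21.0% without it. It called 1 ligand gene and 2 receptor genes, as without it, and changed the sign of Cx3cl1 (-0.036), Ccl7 (-0.069) and Cxcl1 (-0.12). Depth limits the 24 untested ligand genes, of which 17 had under 10 reads.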

Other observations

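Pf4 and Ppbp, CXC ligands of platelets whose symbols fall outside the naming pattern, were read beside the ligand genes. Pf4, or platelet factor 4, had 189, 121 and 225 reads with anti-PD-1, against 307, 440 and 440 with anti-IgG. The groups did not overlap, as in 41.0% of all tested genes. Pf4 fell with a log2 fold change of -1.22 (with SE 0.25, adjusted p = 0.0103 by edgeR). The call was lost without anti-IgG library 2 (edgeR adjusted p = 0.0619) and with the gene length trend (-0.44, edgeR adjusted p = 0.261) or the transcript length trend (-0.12, edgeR adjusted p = 0.806) removed. Ppbp, the precursor of platelet basic protein, had 13, 65 and 40 reads with anti-PD-1, against 15, 37 and 25 with anti-IgG, and its groups overlapped (log2 fold change 0.56 with SE 0.59, adjusted p = 0.518 by edgeR). Of the 6 platelet and megakaryocyte markers listed, 3 were tested, 0 rose, 1 fell, which was Pf4 itself, and 2 did not pass. Of all tested genes, 10.3% rose and 10.8% fell.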
